A study of Homo sapiens with 6 samples.

Results

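The tetraspanins are a family of small proteins that thread through the cell membrane several times and hold other membrane proteins, such as integrins, proteases and receptors, in clusters. Several of them line endosomes and extracellular vesicles, and CD9, CD63 and CD81 are the usual marker proteins of such vesicles. In epithelial tumours some members, such as CD82, are known as suppressors of metastasis, and others, such as CD151 and TSPAN8, for links to invasion. Their messenger RNA was compared between cells of the established line A549, derived from a human lung adenocarcinoma, in hydrogels called AlgLung (3 libraries) and S-AlgLung (3 libraries). No other treatment is named in the labels, which also leave the S unexplained. Matrix sulfation is the subject of the series by its title, and the comparison asks how expression differs between the hydrogels. Members were all genes of the deposited table with the symbol TSPAN and a number, together with CD9, CD37, CD53, CD63, CD81, CD82, CD151, UPK1A and UPK1B. This gave 31 genes of 62703. The retinal tetraspanins PRPH2 and ROM1 fall outside that rule.

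Of the 31 members, 25 had enough reads to be tested, and 6 did not. In S-AlgLung 4 were called higher, namely CD82, TSPAN8, TSPAN1 and UPK1A, and 1 was called lower, TSPAN10 (edgeR quasi-likelihood test, Benjamini-Hochberg adjusted p under 0.05 over all 18544 tested genes). These are 16% and 4% of the tested members, beside 3.15% of all tested genes called higher and 1.99% called lower (5.14% in either direction). The same 5 genes were the members with no overlap between the hydrogels, 4 higher and 1 lower in S-AlgLung. Among all tested genes 18.4% had no overlap, 10.4% higher and 8.05% lower. The 5 of 25 members are near that share, so the count without overlap is no result about the family. The median log2 fold change (S-AlgLung minus AlgLung) of the tested members was 0.16, and that of all tested genes was 0.03. The calls for TSPAN8 and CD82 stood apart from the other three in how they held when single libraries were left out, as given below.

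Library totals ran from 22978408 to 26495444 reads. S-AlgLung replicate 3 lay apart from the other libraries on the second principal component (28.9% of the variance), at 49.22 where the other S-AlgLung libraries were at -33.36 and -20.25 and the AlgLung libraries ran from -19.16 to 21.80, and 28413 genes had a read there against 25729 to 26007 elsewhere. Results without it are given for the members whose call changed and for some others. Nothing in the labels tells separate cultures from repeat libraries, so the spread behind the p-values may be technical. In bulk RNA, fewer cells that express a gene and less of its RNA per cell cannot be told apart. Of the markers of alveolar type 2 cells, ABCA3 was at 208 CPM (counts per 1000000 reads of the library, scaled with TMM factors) in AlgLung and the means of SFTPC and SFTPB were at most 0.068 CPM in both hydrogels. Of the 5 epithelial markers none was called. Mean levels in AlgLung and S-AlgLung were 7352 and 5125 CPM for KRT8, 3723 and 2535 for KRT18, 509 and 445 for KRT19, 65.1 and 82.0 for CDH1, and only 1.95 and 3.83 for EPCAM. Fibroblast markers summed to 7.08 to 7.69 CPM in AlgLung and 6.76 to 8.81 CPM in S-AlgLung, and endothelial markers to 2.34 to 3.68 and 3.04 to 3.77 CPM.

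**Figure D1:**
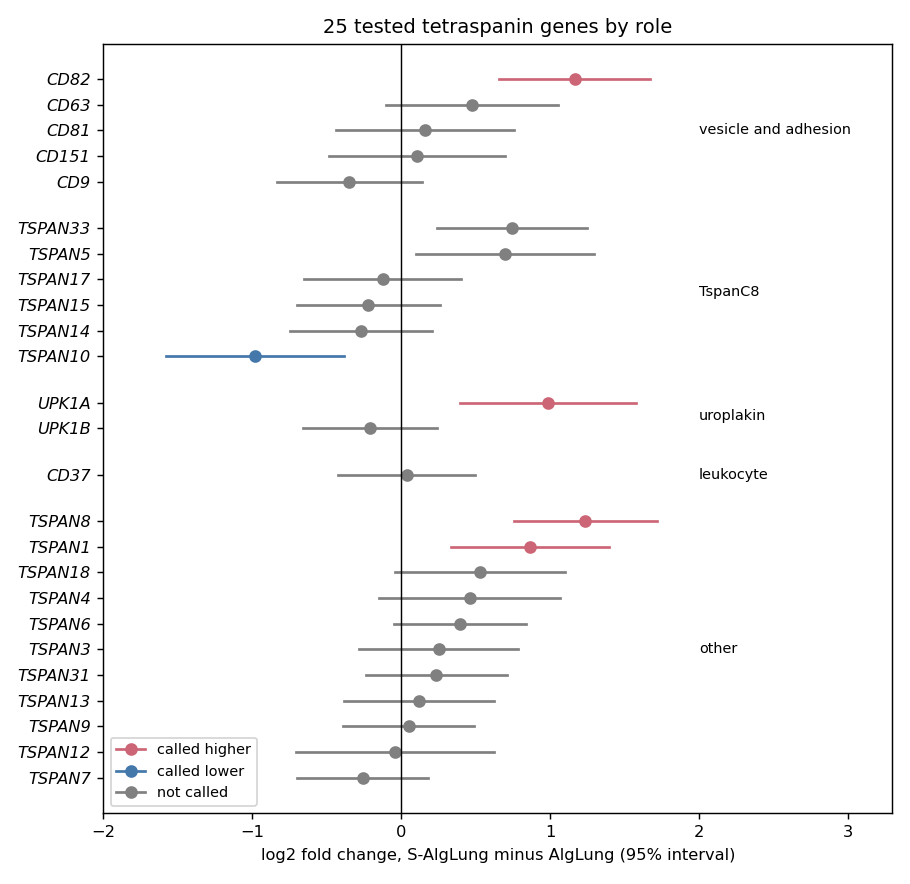
Log2 fold change (S-AlgLung minus AlgLung, horizontal axis) of the 25 tested tetraspanin genes, grouped by role; points are the edgeR estimates over 3 libraries for each hydrogel and lines are 95% intervals. CD82, TSPAN8, TSPAN1 and UPK1A were called higher, TSPAN10 was called lower, and the remaining 20 were not called.

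Per gene length, a few members made up most of the family's RNA. The summed level of the 31 members was 912, 1341 and 1179 RPKM (CPM per kilobase of the gene's exons) in AlgLung replicates 1, 2 and 3, and 1463, 1632 and 1164 RPKM in S-AlgLung replicates 1, 2 and 3. The groups overlapped, with AlgLung replicate 1 lowest. The length used covers all exons annotated for a gene, such as 2422 bases for CD63 and 7986 for CD81. The transcripts in use may be shorter, so ranks and shares between genes are approximate. The 6 members with the highest level, CD63, CD151, TSPAN4, CD81, TSPAN3 and TSPAN15, held 80.3% to 85.4% of the sum in each library. CD63 alone held 36.7% in AlgLung and 41.5% in S-AlgLung on average, and CD151 held 24.7% and 21.1%. CD82 ranked eighth by this measure. Its share was 1.43%, 1.39% and 1.46% in the AlgLung libraries and 2.57%, 2.74% and 2.35% in the S-AlgLung libraries, with no overlap between the hydrogels. Such a share depends on the other members too. It had no overlap in 10 of the 25 tested members, higher in 5 (CD82, TSPAN1, TSPAN8, TSPAN33 and UPK1A) and lower in 5 (TSPAN7, TSPAN10, TSPAN15, TSPAN17 and UPK1B). In CPM, TSPAN33, TSPAN7, TSPAN15, TSPAN17 and UPK1B overlapped between the hydrogels and were not called. No like count was made for other genes, so the 10 are no result about the family.

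**Figure D2:**
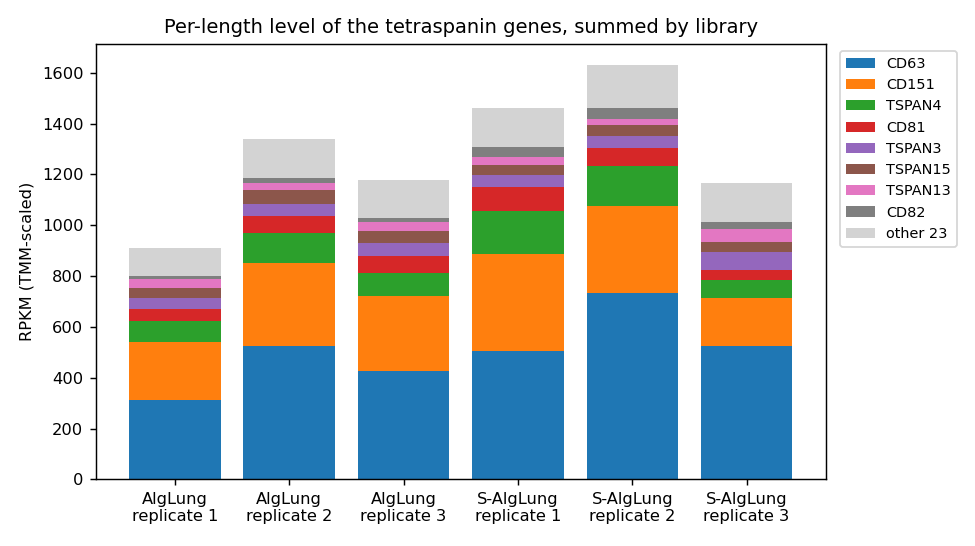
RPKM (vertical axis, TMM-scaled) of the tetraspanin genes stacked for each of the 6 libraries; colours are the 8 members with the highest level and grey is the sum of the other 23. CD63 and CD151 form the largest blocks in each library, and the totals of the hydrogels overlap, from 912 to 1341 in AlgLung and from 1164 to 1632 in S-AlgLung.

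Among the vesicle and adhesion tetraspanins, CD82 was called higher and the other four were not called. CD82 (ENSG00000085117, chromosome 11, 44564427 to 44620358, GRCh38), which restrains cell motility and integrin signalling, was at 52.7, 75.1 and 69.7 CPM in AlgLung replicates 1, 2 and 3 and at 152, 181 and 110.4 CPM in S-AlgLung replicates 1, 2 and 3. Each S-AlgLung library lay above each AlgLung library, and S-AlgLung replicate 3 was the lowest of its group. The fold change was 2.24 (95% interval 1.58 to 3.19; log2 fold change 1.17, SE 0.25, adjusted p = 0.00296 with edgeR). The call was lost without AlgLung replicate 1 (log2 fold change 0.99, adjusted p = 0.0816). The antisense gene CD82-AS1 shares 280 bases of exon with CD82 on the other strand, had 28.3% of its counts and was itself called higher (2.20-fold, adjusted p = 0.00116). Whether counting used strand is not known here, so reads in the shared stretch cannot be assigned.

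CD63, the tetraspanin of late endosomes and lysosomes, was at 760.3, 1275 and 1036 CPM in AlgLung replicates 1, 2 and 3. In S-AlgLung replicates 1, 2 and 3 it was at 1227, 1777 and 1269 CPM. S-AlgLung replicates 1 and 3 fell inside the AlgLung range, and the gene was not called (log2 fold change 0.48, 95% interval -0.10 to 1.05, adjusted p = 0.469).

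CD151, a partner of laminin-binding integrins, was at 881, 1267 and 1146 CPM in AlgLung and at 1482, 1331 and 738 CPM in S-AlgLung, in the order of replicates 1, 2 and 3. Replicates 1 and 2 of S-AlgLung were above all AlgLung libraries and replicate 3 was below them, and the gene was not called (log2 fold change 0.11, 95% interval -0.48 to 0.70). CD81, which associates with immune and growth receptors and with vesicles, had the same pattern, at 383, 535 and 519 CPM in AlgLung and 736, 573 and 297 CPM in S-AlgLung. Its log2 fold change was 0.16 (95% interval -0.43 to 0.76). The POLR2L gene overlaps 257 bases of CD151 exon on the other strand and had 55.6% of its counts.

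CD9, which regulates cell fusion and adhesion, was singled out after its values were seen. It was at 119, 117 and 120.4 CPM in AlgLung and at 76.1, 83.1 and 121 CPM in S-AlgLung. S-AlgLung replicates 1 and 2 thus lay below a tight AlgLung group and replicate 3 lay just above it. CD9 was not called (log2 fold change -0.35, 95% interval -0.83 to 0.14), and without S-AlgLung replicate 3 its log2 fold change was -0.61 (adjusted p = 0.0548).

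The TspanC8 subgroup, whose members carry the sheddase ADAM10 out of the endoplasmic reticulum and steer its substrates, changed in 1 of 6 members, beside 5.14% of all tested genes called in either direction and 1.99% called lower. TSPAN10 (ENSG00000182612, chromosome 17, 81637171 to 81648754) fell from 3.45, 4.54 and 3.52 CPM in AlgLung replicates 1, 2 and 3 to 1.72, 1.98 and 2.10 CPM in S-AlgLung. All S-AlgLung values were below all AlgLung values. The log2 fold change was -0.98 (SE 0.29, 95% interval -1.58 to -0.38, adjusted p = 0.0454). The call was lost when any library other than S-AlgLung replicate 3 was left out (adjusted p = 0.0595, 0.181 and 0.0903 without AlgLung replicates 1, 2 and 3, and 0.169 and 0.0737 without S-AlgLung replicates 1 and 2). Only 420 reads in all were counted for TSPAN10, and its exons share 36 bases with NPLOC4 on the other strand, which had 33474 reads and was not called (fold change 1.20, adjusted p = 0.72).

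TSPAN33 was the other member of this subgroup near the threshold. It was at 16.1, 29.6 and 23.1 CPM in AlgLung and at 46.6, 42.9 and 25.97 CPM in S-AlgLung. The groups overlapped because S-AlgLung replicate 3 was below AlgLung replicate 2 (log2 fold change 0.75, SE 0.25, adjusted p = 0.0819). TSPAN33 was called once S-AlgLung replicate 3 was left out (log2 fold change 0.93, adjusted p = 0.00024), with the replicate number as a block (adjusted p = 0.0137) and without a low-count filter (0.0428). It was not called in the other 12 of 15 alternatives, where the highest adjusted p was 0.548 (without AlgLung replicate 1, log2 fold change 0.50).

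TSPAN15, which directs ADAM10 to N-cadherin, was the TspanC8 member with the highest level per length, at 43.8 RPKM. Its values were 100.3, 145 and 129 CPM in AlgLung and 106, 112 and 103 CPM in S-AlgLung, inside the AlgLung range (log2 fold change -0.22, 95% interval -0.70 to 0.26). TSPAN14, TSPAN17 and TSPAN5 were at -0.27, -0.12 and 0.70 and were not called (adjusted p = 0.692, 0.906 and 0.228). For TSPAN5, S-AlgLung replicate 3 was at 9.56 CPM and the other 5 libraries were at 3.37 to 4.77 CPM. Without S-AlgLung replicate 3 the log2 fold change of TSPAN5 was 0.19. The protease itself, ADAM10, was at 105 ± 18.2 CPM in AlgLung and 85.9 ± 9.01 CPM in S-AlgLung (mean ± SD, n = 3; log2 fold change -0.30, edgeR adjusted p = 0.643). ADAM17, a related sheddase, was at -0.11 (adjusted p = 0.896).

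Of the uroplakins, which form the rigid plaques of the bladder surface, UPK1A was called higher and UPK1B was not called. UPK1A (ENSG00000105668, chromosome 19, 35666517 to 35678481) was at 2.34, 2.25 and 3.35 CPM in AlgLung and at 5.67, 6.46 and 3.66 CPM in S-AlgLung. The groups did not overlap, but S-AlgLung replicate 3 lay close to AlgLung replicate 3. The log2 fold change was 0.99 (SE 0.29, 95% interval 0.40 to 1.58, adjusted p = 0.0408). The antisense gene UPK1A-AS1 shares 271 bases of exon with UPK1A on the other strand, had 18.8% of its counts, and had no overlap either, with a log2 fold change of 0.99 (adjusted p = 0.254). The UPK1A call too was lost when any library other than S-AlgLung replicate 3 was left out (adjusted p = 0.0509 to 0.226). UPK1B, at 31.0 ± 6.71 CPM in AlgLung and 26.8 ± 3.86 CPM in S-AlgLung (mean ± SD, n = 3), had a log2 fold change of -0.21 (edgeR adjusted p = 0.761). It shares 33 bases of exon with the unnamed gene ENSG00000251012 on the same strand, which had 29.9% of its counts, so its value is uncertain. Of the proteins that pair with UPK1A and UPK1B in urothelium, UPK2 was at 0.34 (adjusted p = 0.608), UPK3B was at -0.36 (0.74), and UPK3A had too few reads to test.

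The leukocyte tetraspanins were at or near 0 except for CD37. CD53 had 2 reads and TSPAN32 had 10 reads over all 6 libraries. CD37, a lymphocyte gene, was at 7.86 to 10.7 CPM and did not separate the hydrogels (log2 fold change 0.04, adjusted p = 0.976). The gene TEAD2 overlaps 319 bases of its exons on the other strand and had 4543 reads against its 1421. The leukocyte markers PTPRC, CD3E and MS4A1 were at 0 in every AlgLung library and averaged at most 0.0704 CPM in S-AlgLung. The leukocyte markers CD14 and ITGAM were called higher in S-AlgLung, CD14 with a mean of 59.1 CPM against 32.8 (adjusted p = 0.0225) and ITGAM with 4.39 against 2.23 (0.0405). The summed level of these 5 markers was 32.5 to 39.4 CPM in AlgLung and 48.0 to 74.2 CPM in S-AlgLung. CD14 alone held most of that sum, at 30.3, 37.5 and 30.5 CPM in AlgLung and 64.7, 69.7 and 42.8 CPM in S-AlgLung. PTPRC, CD3E and MS4A1 had 5, 2 and 1 reads over all 6 libraries. The part of these markers in the tetraspanin results was not tested.

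Of the remaining 15 members, 11 were tested, and TSPAN8 and TSPAN1 were called higher. TSPAN8 (ENSG00000127324, chromosome 12, 71125085 to 71441898), a tetraspanin of gut and airway epithelium, was at 6.36, 6.16 and 7.82 CPM in AlgLung replicates 1, 2 and 3. It was at 12.6, 15.4 and 19.9 CPM in S-AlgLung replicates 1, 2 and 3. The groups were well apart, and S-AlgLung replicate 3 was here the highest library. The fold change was 2.36 (95% interval 1.69 to 3.29; log2 fold change 1.24, SE 0.23, adjusted p = 0.000954). It was called in all 15 alternatives that were run, with log2 fold changes of 1.02 to 1.38.

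TSPAN1 (ENSG00000117472, chromosome 1, 46175073 to 46185962), found in secretory epithelia, was at 23.7, 48.4 and 48.9 CPM in AlgLung and at 72.4, 91.2 and 56.7 CPM in S-AlgLung. The groups did not overlap, and AlgLung replicate 1 lay well below its group. The log2 fold change was 0.86 (SE 0.26, 95% interval 0.34 to 1.39, adjusted p = 0.0464). Without AlgLung replicate 1 it was 0.55 (adjusted p = 0.479), and the call was lost as well without AlgLung replicate 2 (0.118) or 3 (0.0611) and S-AlgLung replicate 1 (0.123) or 2 (0.157). AlgLung replicate 1 was the lowest AlgLung library in 18 of the 25 tested members. The same count was not made over all tested genes, so it is no result about the family.

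**Figure D3:**
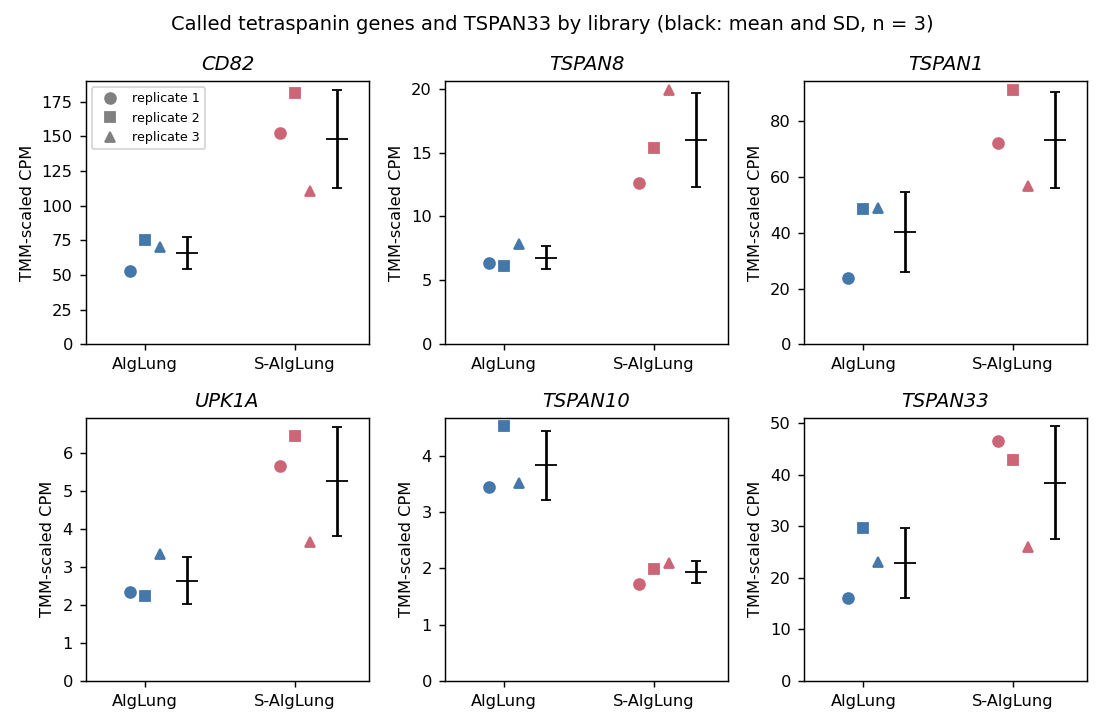
TMM-scaled CPM (vertical axes, starting at 0) in each library of the 5 called tetraspanin genes and TSPAN33; marker shapes give the replicate number, and black bars give the mean and SD of 3 libraries. The hydrogels do not overlap in CD82, TSPAN8, TSPAN1, UPK1A and TSPAN10, while in TSPAN33 S-AlgLung replicate 3 (25.97) is below AlgLung replicate 2 (29.6).

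TSPAN4, a tetraspanin of migrasomes, was the third most abundant member per length, at 115 RPKM. It was at 478, 690.2 and 527 CPM in AlgLung and at 988, 924 and 419 CPM in S-AlgLung. As for CD151, replicates 1 and 2 of S-AlgLung were above all AlgLung libraries and replicate 3 was below them. TSPAN4 was not called over all libraries (log2 fold change 0.46, 95% interval -0.15 to 1.06, adjusted p = 0.528), and was called higher without S-AlgLung replicate 3 (0.73, adjusted p = 0.0354). TSPAN3 was at 369, 378 and 441 CPM in AlgLung and at 413, 379 and 622 CPM in S-AlgLung. Only S-AlgLung replicate 3 left the AlgLung range, upwards (log2 fold change 0.25, 95% interval -0.28 to 0.79).

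The other 7 tested genes of this group were not called. Their log2 fold changes ran from -0.26 for TSPAN7 through -0.04 for TSPAN12, an enhancer of norrin signalling through FZD4, 0.05 for TSPAN9, 0.12 for TSPAN13, 0.24 for TSPAN31 and 0.39 for TSPAN6 to 0.53 for TSPAN18. FZD4 was at 0.38 (adjusted p = 0.559), its co-receptor LRP5 was at 0.30 (0.694), and the ligand gene NDP had no reads. TSPAN18 was called higher without S-AlgLung replicate 3 (0.79, adjusted p = 0.00806). Its exons share 76 bases with TP53I11 on the other strand, which had 62831 reads against its 1416. TSPAN31 shares 1369 bases of exon with CDK4 (26576 reads against 16038) and 189 bases with AGAP2 (8328 reads), both on the other strand. TSPAN7 shares 676 bases with the unnamed gene ENSG00000250349 on the same strand (3378 against 5037). The values of these genes are uncertain for that reason.

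TSPAN2, TSPAN11, TSPAN16 and TSPAN19 were not tested, like CD53 and TSPAN32. They had 1, 30, 5 and 11 reads over all 6 libraries. A count of 0 in a library allows a level of up to 0.107 to 0.136 CPM (3 reads, counting error only). TSPAN11 had 1 to 10 reads in each library, with means of 0.28 CPM in AlgLung and 0.12 CPM in S-AlgLung. The other untested members had at most 4 reads in any library, so they were not detectable, or barely so, at this depth.

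S-AlgLung replicate 3 differed from the other S-AlgLung libraries in both directions. Of the 25 tested members, 10 (40%) were lower there than in both others and 11 (44%) were higher than in both. These shares were near those of all tested genes with a GC value, 34.8% lower and 43.5% higher, so they are no result about the family. The lowest relative to the mean of replicates 1 and 2 were TSPAN4 at -1.19, TSPAN18 at -1.15, CD81 at -1.14 and CD151 at -0.93 (log2 ratio). The highest were TSPAN5 at 1.10, TSPAN13 at 0.88 and TSPAN12 at 0.68. In 9 of the 25, replicate 3 lay on the opposite side of the AlgLung mean from the mean of the other S-AlgLung libraries.

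Which members were lower or higher there went with the base composition of their transcripts. The 10 members that were lower in replicate 3 had a GC content of 52.0% to 64.9% (median 57.9%), and the 11 that were higher had 40.9% to 57.9% (median 48.0%). Across the 25 members the log2 ratio and GC content were related with a Spearman rho of -0.80 (Pearson r -0.78), and across 17835 tested genes with -0.40 (Pearson r -0.43). The log2 fold change between the hydrogels, over the same 17835 genes, was related to GC content with the opposite sign and more weakly (Spearman rho 0.23, Pearson r 0.17). Genes are not independent replicates, and the ratio compares 1 library with 2. In a fit with GC offsets, an alternative chosen after seeing the data, CD82 (log2 fold change 1.06, adjusted p = 0.00462), TSPAN8 (1.32, 0.00179) and TSPAN10 (-1.04, 0.0275) were called, whereas TSPAN1 (0.79, 0.11) and UPK1A (0.86, 0.087) were not.

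These 5 calls were read against the same count over all genes in each setting. With DESeq2 size factors 2 members were called higher and 1 lower (all genes 2.76% and 1.99%), and with total counts only 2 and 0 (1.8% and 1.81%). Upper-quartile factors gave 4 and 1 (3.17% and 2.2%), the DESeq2 Wald test 3 and 1 (3.2% and 2.15%) and limma-voom 3 and 0 (2.67% and 1.89%). Without a low-count filter, where all 31 members entered, 5 and 1 were called (2.17% and 1.28%), with a mean of at least 1 CPM 4 and 1 (3.34% and 1.88%), and with the replicate number as a block 5 and 1 (4.31% and 2.7%). GC offsets gave 2 and 1 (2.9% and 2.27%), and an adjusted p under 0.01 gave 2 and 0 (1.74% and 1.17%). CD82 and TSPAN8 were among the members called in each of these settings at the 0.05 threshold.

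Leaving out AlgLung replicate 1 left TSPAN8 alone (all genes 1.52% higher and 1.35% lower). Leaving out AlgLung replicate 2 (1.61% and 1.28%), AlgLung replicate 3 (1.71% and 1.55%), S-AlgLung replicate 1 (2.22% and 1.33%) or S-AlgLung replicate 2 (3.75% and 1.8%) left CD82 and TSPAN8. Without S-AlgLung replicate 3, 7 members were called higher and 1 lower, beside 4.75% and 3.53% of all genes tested in that fit. The 7 were the 4 named above with TSPAN4, TSPAN18 and TSPAN33, and the 1 lower was TSPAN10.

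**Figure D4:**
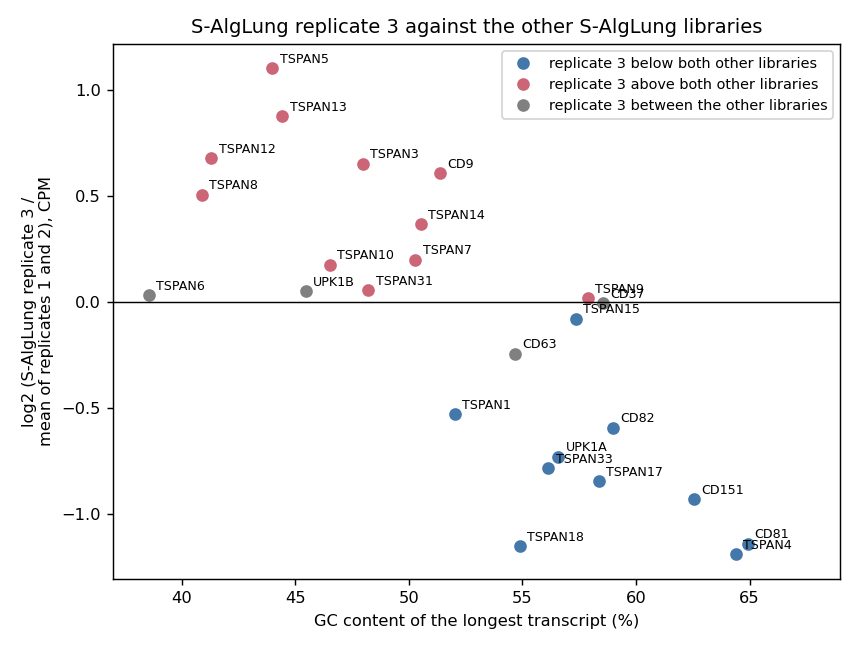
Log2 ratio of S-AlgLung replicate 3 to the mean of replicates 1 and 2 (vertical axis, from TMM-scaled CPM) against the GC content of the longest annotated transcript (horizontal axis, %) for the 25 tested tetraspanin genes. GC-rich genes such as CD81 and TSPAN4 sit near -1.1 and -1.2 and GC-poor genes such as TSPAN5 sit near 1.1.

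The letters before the starts of the called members are shown because these genes differ widely in base composition there. Each line gives bases of the RefSeq window (GRCh38.p14) that begins 250 bases before the annotated start, read 5′ to 3′ on the gene's strand and stopped before the gene's first exon base there. Capitals mark matches on either strand to 4 motifs. These were the GC box, spelled GGGCGG, and the AP-1 site, spelled TGANTCA. The others were the TATA motif, spelled TATAAA, and the CCAAT box, spelled as it is named. Coordinates are chr11:44565413-44565600 (plus strand) for CD82, chr12:71158000-71158249 (minus strand) for TSPAN8, chr1:46174837-46175072 (plus strand) for TSPAN1, chr19:35666267-35666516 (plus strand) for UPK1A and chr17:81642055-81642289 (plus strand) for TSPAN10.
CD82: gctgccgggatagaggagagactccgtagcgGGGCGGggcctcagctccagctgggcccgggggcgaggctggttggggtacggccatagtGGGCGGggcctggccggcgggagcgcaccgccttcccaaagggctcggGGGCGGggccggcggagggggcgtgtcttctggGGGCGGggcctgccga
TSPAN8: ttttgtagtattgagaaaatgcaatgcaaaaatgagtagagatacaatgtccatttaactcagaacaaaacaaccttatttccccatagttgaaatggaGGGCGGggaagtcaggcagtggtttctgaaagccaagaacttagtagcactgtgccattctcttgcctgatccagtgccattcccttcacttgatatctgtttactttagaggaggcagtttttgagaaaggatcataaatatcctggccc
TSPAN1: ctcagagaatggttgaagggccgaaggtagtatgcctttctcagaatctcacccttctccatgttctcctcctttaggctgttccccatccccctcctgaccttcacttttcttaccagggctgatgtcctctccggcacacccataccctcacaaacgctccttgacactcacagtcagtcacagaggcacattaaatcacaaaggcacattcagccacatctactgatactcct
UPK1A: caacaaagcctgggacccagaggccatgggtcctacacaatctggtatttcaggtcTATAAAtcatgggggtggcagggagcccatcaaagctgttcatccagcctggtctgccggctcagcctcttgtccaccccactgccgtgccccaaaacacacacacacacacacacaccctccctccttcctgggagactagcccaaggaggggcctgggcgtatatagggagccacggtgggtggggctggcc
TSPAN10: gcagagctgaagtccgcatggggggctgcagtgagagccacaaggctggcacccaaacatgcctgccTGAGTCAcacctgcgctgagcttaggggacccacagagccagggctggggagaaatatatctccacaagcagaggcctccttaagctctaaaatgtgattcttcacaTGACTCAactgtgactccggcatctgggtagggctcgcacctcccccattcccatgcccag

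The CD82 window was rich in GC, at 77.2% of its 250 bases with 26 CpG dinucleotides, and held 4 GC boxes. The TSPAN8 window was the poorest in GC of the 5, at 40.8% with 1 CpG and 1 GC box. TSPAN1 was at 51.2% with 4 CpGs and had none of the 4 motifs. UPK1A was at 60.0% with 4 CpGs and 1 TATA motif. TSPAN10, the member that fell, was at 58.0% with 4 CpGs and held 2 AP-1 matches, the first beginning 183 and the second 76 bases before the start. Over 27305 RefSeq genes the median window had 57.6% GC and 10 CpGs, and 42.2% held a GC box, 6.57% an AP-1 match, 11.2% a TATA motif and 33.0% a CCAAT box. Of the 18 tested members with a window, 9, 1, 1 and 6 did. In the deposited table the genes TSPAN8, CD82 and TSPAN10 begin upstream of these windows, and a match to letters is no evidence of binding.

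Genes that work with the tetraspanins were mostly not called. Of 5 laminin-binding integrin genes none was called with edgeR, DESeq2 or limma-voom, and 2 had an unadjusted p under 0.05. These were ITGA6 at 118, 83.2 and 101 CPM in AlgLung and 73.1, 62.2 and 64.1 CPM in S-AlgLung (log2 fold change -0.60, adjusted p = 0.167), and ITGB1 (-0.62, 0.246). For both, all S-AlgLung values were below all AlgLung values. ITGA7 had no overlap in the other direction, at 5.37, 4.95 and 3.60 CPM in AlgLung and 5.89, 6.08 and 7.497 CPM in S-AlgLung (log2 fold change 0.49, adjusted p = 0.383). Of all tested genes, 8.05% had no overlap and were lower and 10.4% had none and were higher. Of 8 other partners in tetraspanin clusters, none was called with any of these tools, and 2 had an unadjusted p under 0.05. EPCAM was at 0.97 (means of 1.95 and 3.83 CPM, adjusted p = 0.0729), and the growth factor gene HBEGF, whose membrane form associates with CD9, was at 0.73 (0.206). Both were higher in S-AlgLung without overlap, which makes 2 of 8 beside 10.4% of all tested genes. EPCAM was called higher in 3 of the alternative settings. ROM1, a tetraspanin of photoreceptors, was at 0.10 (adjusted p = 0.933), and PRPH2 had no reads.

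Of 20 genes of extracellular vesicles and endosomes, 1 was called lower and none higher, with a median log2 fold change of -0.06. That is 5% of the list, near the 5.14% of all tested genes called in either direction (1.99% lower). The called gene was RAB27B, a small GTPase that docks secretory vesicles at the plasma membrane. It was at 57.0, 33.5 and 49.8 CPM in AlgLung and at 24.9, 18.5 and 21.6 CPM in S-AlgLung. The groups did not overlap, and the log2 fold change was -1.11 (SE 0.23, 95% interval -1.58 to -0.64, adjusted p = 0.0021). The next smallest p-values were those of VPS4B (-0.48, adjusted p = 0.297), SDCBP (-0.23, 0.74) and VPS4A (0.25, 0.744), which act in vesicle budding.

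The L6 family, whose proteins have a similar layout in the membrane but are not tetraspanins, had 1 of 6 members called, higher, beside 3.15% of all tested genes. TM4SF4 was at 112, 147 and 117 CPM in AlgLung and at 264, 313 and 439 CPM in S-AlgLung. The groups were well apart, with a fold change of 2.71 (log2 fold change 1.44, SE 0.26, adjusted p = 0.000557). TM4SF1 (0.63, adjusted p = 0.232) and TM4SF20 (0.58, 0.247) also had no overlap between groups, which makes 3 of 6 beside 10.4% of all tested genes higher without overlap. TM4SF5 was at 0.22 (0.868).

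**Figure D5:**
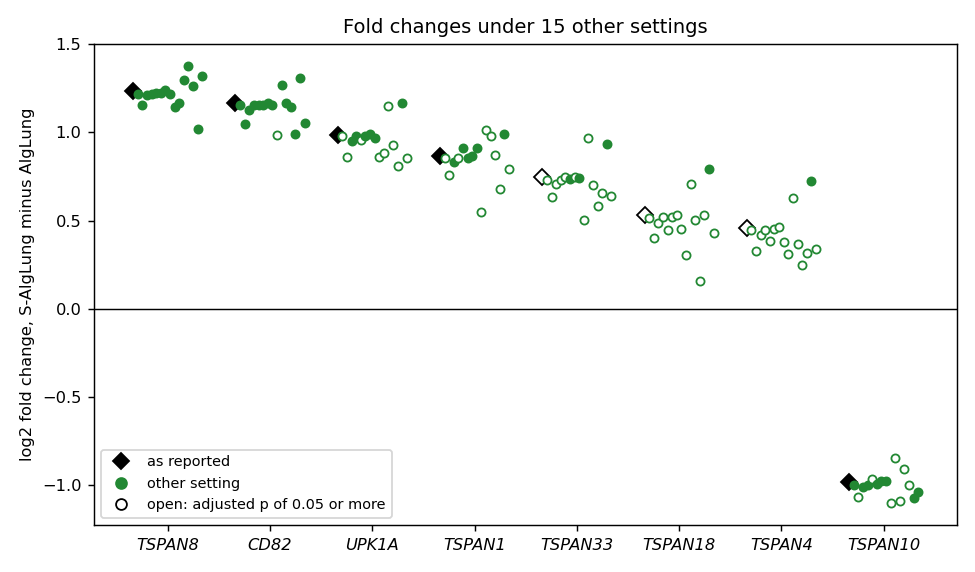
Log2 fold change (vertical axis, S-AlgLung minus AlgLung) of 8 tetraspanin genes as reported (diamonds) and under 15 other settings (circles); filled symbols have an adjusted p under 0.05. TSPAN8 is filled in all 15 and CD82 in 14, while TSPAN18 and TSPAN4 are filled in 1 each.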

How the data were processed

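RNA was sequenced from 6 libraries of A549 cells, 3 for each hydrogel. The submitters' processing notes name STAR 2.7.3a, featureCounts and GRCh38. The featureCounts version, annotation and use of strand are not given in the sources. Whole-number counts per gene, not normalized, were deposited, with exon lengths in bases, per the file headers. AlgLung replicate 1 had 2 columns that differed in 0 genes and were counted as 1 sample. Symbols came from a gene name table (62625 of 62703 IDs matched). In 3 overlapping gene pairs with at least 1000 reads the counts were identical in all 6 libraries, so a read may have been given to both genes of a pair.

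The main test was edgeR's quasi-likelihood F test (version 4.0.16, R 4.3.3) after filterByExpr (minimum count 10) and TMM scaling, with no block. A Benjamini-Hochberg adjusted p under 0.05 made a call. SEs were taken from each gene's F statistic (size of the log2 fold change over the root of F), as were the 95% intervals. The script was tested on simulated counts with known changes. In each of 5 simulations 200 of 18544 genes were changed. No simulated library was set apart as S-AlgLung replicate 3 was, so the rates may differ in the deposited data. Under those settings the script called 7.6% of 1.5-fold, 48.4% of 2-fold and 94.4% of 4-fold changes, and 6.61% of its calls were false. A gene that was not called may therefore still differ by such smaller folds. Alternatives were other scalings, DESeq2 1.42.0 (its Wald test), voom weights in limma 3.58.1, other low-count filters, the replicate block, each library left out, and a threshold of 0.01. GC content came from the longest transcript in GENCODE release 29 (a value for 96.2% of tested genes). Promoter windows are RefSeq's, 1 per gene, at the start farthest upstream, and the motifs were chosen with these windows in view.

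Values in every library are given for members that were called, had an adjusted p up to 0.2, did not overlap between groups or were among the 6 highest by RPKM; in each related list up to 4 genes with the smallest p are named, or up to 2 where none was called. Members and lists were chosen with earlier results of these data known. 1 further leukocyte marker gene, beyond the 5 given, is not reported here.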

Additional observations from a re-analysis of the deposited data

How the results depend on the processing

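Of the 5 called members, TSPAN8 was called in 15 of 15 alternatives, CD82 in 14, TSPAN10 in 8, and TSPAN1 and UPK1A in 6 each. The number of members called higher was 4 as reported. It was 2 with DESeq2 size factors, with total counts only, with GC offsets and at an adjusted p under 0.01, and 1 to 7 when single libraries were left out. The number called lower was 1 as reported, 0 with total counts only, with limma-voom and at the stricter threshold, and 0 to 1 with single libraries left out. With single libraries left out, members without overlap numbered 4 to 9 (higher) and 1 to 6 (lower), and the share of all tested genes without overlap was 12.6% to 19.1% and 9.44% to 17.9%, against 10.4% and 8.05% with all libraries. Fewer samples enter these. Over all genes, 584 were called higher and 369 lower. Total counts only gave 333 and 335 and moved the median log2 fold change of all genes from 0.03 to -0.07; the stricter threshold gave 323 and 217. Leaving out single libraries gave 289 to 891 higher and 244 to 662 lower. The cause of these differences was not tested.

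Some values near 0 changed sign. With total counts only, CD37 was at -0.0554, TSPAN9 at -0.0373, CD151 at -0.0181 and ROM1 at -0.0205. With GC offsets, chosen after seeing the data, CD37 was at -0.0573, TSPAN9 at -0.0429, CD151 at -0.0102, TSPAN12 at 0.0245 and ADAM17 at 0.0353. With single libraries left out, log2 fold changes ran from -0.38 to 0.0731 for TSPAN17, -0.14 to 0.11 for CD37, -0.34 to 0.11 for TSPAN12, -0.27 to 0.31 for TSPAN13, -0.0328 to 0.38 for TSPAN3, -0.16 to 0.14 for TSPAN9, -0.0869 to 0.32 for CD151, -0.14 to 0.42 for CD81, -0.27 to 0.0069 for ADAM17, -0.12 to 0.30 for ROM1 and -0.14 to 0.62 for TM4SF5.

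With the replicate number as a block, 5 members were called higher and 1 lower, and 800 and 500 genes in all. Same-numbered libraries had correlations of their deviations of 0.07, 0.29 and 0.04, and those of differently numbered libraries ran from -0.34 to 0.21. With 3 libraries for each hydrogel these values cannot settle whether the numbers pair the samples, and the labels do not say. The 6 members with 1 to 30 reads in all did not pass the low-count filter.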

Other observations

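Of the 6 members on chromosome 11, 5 were tested, and all 5 (CD82, TSPAN18, CD151, TSPAN4 and CD81) were lower in S-AlgLung replicate 3 than in both other S-AlgLung libraries. CD151 and TSPAN4 are neighbours 2981 bases apart, TSPAN32 and CD81 lie 58.0 kb apart, and CD82 and TSPAN18 lie 106.1 kb apart. Of the 5 tested members on chromosome 12, 0 were lower in S-AlgLung replicate 3 than in both others. Among all tested genes with a GC value, 34.8% were lower in that library than in both others. No like count was made for other genes of these chromosomes, so this is no result about the chromosomes. The GC content of the 5 chromosome 11 genes was 54.9% to 64.9%, and its part in the pattern was not tested.

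The ratio of CD63 to CD9, both vesicle tetraspanins, was 15.3, 26.1 and 20.7 in AlgLung replicates 1, 2 and 3 and 38.8, 51.4 and 25.2 in S-AlgLung replicates 1, 2 and 3 (RPKM over RPKM). S-AlgLung replicate 3 fell inside the AlgLung range. The ratio of CD82 to CD9 was 0.638, 0.924 and 0.836 in AlgLung and 2.89, 3.14 and 1.31 in S-AlgLung, with no overlap. CD82 by itself had no overlap either. The ratio of CD81 to CD9 was 2.34, 3.33 and 3.15 in AlgLung and 7.06, 5.03 and 1.79 in S-AlgLung, with S-AlgLung replicate 3 below all AlgLung libraries. No like count was made for other pairs of genes. These ratios were chosen after the values of the genes were seen and were not tested.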
